A study of Arabidopsis thaliana with 12 samples.

Results

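Exon peaks were the m6A peaks that the authors' deposited table of peak differences places in an exon instead of in a 5' or 3' untranslated region (UTR). A peak was taken as a member where its annotation began with the word Exon, and 860 of the 6437 peaks of the authors' deposited table (13.4%) met that rule. The other peaks were 497 in 5' UTRs and 5080 in 3' UTRs. The rule read the annotation only, so no measured level or change chose the members. They were assigned to 795 genes, of which 742 had 1 exon peak, 43 had 2 and 10 had 3 or more.

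The material was shoots (aerial part) of Arabidopsis thaliana plants aged 3 weeks, from the mettl16 mutant and from Col-0, the reference of the study and the ecotype named for every sample. Plants of both genotypes grew with 16 h of light and 8 h of dark at 23 °C. Each genotype had 3 m6A immunoprecipitates and 3 RNA-seq (input) libraries, which makes 12 samples in 4 groups of biological replicates. The labels do not give the mutant allele, the mutated locus or the number of plants in a sample, and the series asks what m6A does in the floral transition.

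N6-methyladenosine (m6A) is a methyl group on adenosines of messenger RNA, placed while the transcript is made. In plants a complex around the methyltransferases MTA and MTB writes most of it, mainly near stop codons and in 3' UTRs, and YTH-domain proteins read it. METTL16 is a separate m6A methyltransferase that acts outside that complex. Its Arabidopsis homologue FIO1 is known for delaying flowering, and FIO1 was taken as the mutated gene from general knowledge. In m6A immunoprecipitation sequencing, RNA is cut into pieces of about 100 nt, the pieces bound by an antibody against m6A are read beside the untreated input, and stretches enriched over the input are called as peaks.

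For each peak the authors' deposited table holds a log2 fold change and a false discovery rate (FDR) of the difference between genotypes, and no value for a single m6A sample. The table's name puts mettl16 before Col-0, and the fold was taken as mettl16 over Col-0 on that ground, so a value below 0 means a lower m6A signal in mettl16. A peak was called lower or higher where the authors' FDR was under 0.05. The sources used here do not give how replicates and input entered it, so values of m6A carry no SD and no n.

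Host transcript levels came from the authors' FPKM values, which are fragments scaled by transcript length and library size, of the 6 RNA-seq libraries. That table held 25566 genes, and 19505 of them were tested with limma, a linear model over all genes, and a gene rose or fell where its adjusted p was under 0.05. FPKM summed to between 699031 and 706690 in mettl16 libraries and to between 714685 and 718824 in Col-0 libraries. FIO1 was measured at 0.292, 0.148 and 0.197 FPKM in mettl16 libraries, against 1.98, 2.13 and 2.31 FPKM in Col-0 libraries. Genes listed at 0 numbered 1939 to 2171 in mettl16 libraries, against 2590 to 3120 in Col-0 libraries, and Col-0 replicate 1 had the most. The libraries differed in floral marker transcripts: 11 anther and pollen markers summed to between 22.6 and 24.8 FPKM in mettl16 libraries, against 3.98 to 4.54 FPKM in Col-0 libraries. Most of the Col-0 sum came from LAP6, at 3.447, 3.775 and 4.169 FPKM. Of these markers 8 were tested and 8 rose. Over all tested genes 41.1% rose and 23.4% fell. Of the 11 markers, 7 (A9, A6, ATA7, MS1, DYT1, MYB80 and ACOS5) were listed at 0 in every Col-0 library. MS1, DYT1 and MYB80, which were not tested, were also near 0 in mettl16 libraries. MS1 was at 0.0809, 0.0764 and 0.0777 FPKM there, DYT1 at 0.121, 0 and 0.165 FPKM, and MYB80 at 0.124, 0 and 0.108 FPKM. No anther and pollen marker had an exon peak, and 2 had a peak of any class. Green leaf markers, which define the labelled tissue, summed to 32680 to 34880 FPKM in mettl16 libraries and to 34660 to 35930 FPKM in Col-0 libraries, most of it from RBCS1A. Of these 4 markers 1 rose and 2 fell: LHCB1.1 was at 3372 to 3585 FPKM in mettl16 libraries, against 5168 to 5343 FPKM in Col-0 libraries, and LHCB2.1 at 1668 to 1749 FPKM in mettl16 libraries, against 2980 to 3028 FPKM in Col-0 libraries. Of 6 root markers 3 were in the table, and they summed to 64.6 to 68.4 FPKM in mettl16 libraries and to 63.4 to 65.7 FPKM in Col-0 libraries, nearly all of it from PYK10. In whole shoots, more cells of a type and more RNA per cell cannot be told apart. The part of these marker differences in any m6A value below was not tested.

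As a class, exon peaks were shorter than UTR peaks, and their median position was further from the 3' end than that of all peaks. Their median width was 300 nt and the median length covered by their blocks was 268 nt, against 475 nt covered for UTR peaks. A single unbroken block made up 601 exon peaks (69.9%), against 46.5% of UTR peaks. The shortest exon peak was 59 nt long and the longest 5494 nt, and 1 exon peak had 9 blocks. A peak's middle, placed along its gene with introns included, had a median of 0.673 of the way to the 3' end for exon peaks, 0.154 for 5' UTR peaks and 0.886 for 3' UTR peaks. Although none is annotated to a UTR, 288 exon peaks (33.5%) reached the 3' end of the gene model and 73 reached its 5' end. The annotation thus does not place a member in coding sequence for certain. Of the 795 genes, 701 had no UTR peak in the table and 94 had one.

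The table numbers the exon each peak lies in, and members were sorted by that number into genes with a single exon (262 peaks), first exons (115), internal exons (283) and last exons (200). Peaks in last exons crowded toward the gene's end, with 116 of 200 middles in the last 10% of the gene and a median position of 0.917. Peaks in first exons had a median position of 0.232 and 1 middle in the last 10%. Peaks in internal exons had a median position of 0.686, and their transcripts had a median of 8 exons. A single block made up 79 of these 283 peaks (27.9%), so most of them were split. It made up 257 of 262 single-exon peaks, 198 of 200 last-exon peaks and 67 of 115 first-exon peaks. Single-exon peaks were spread over the gene, with a median position of 0.586 and 52 middles in the last 10%. For 28 exon peaks the exon belongs to a gene model other than the assigned gene, and 64 (7.44%) overlapped more than 1 gene model, 54 of them on both strands. The sources used here do not give whether strand was used in counting m6A, so signals of such overlapping genes cannot be told apart.

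**Figure D1:**
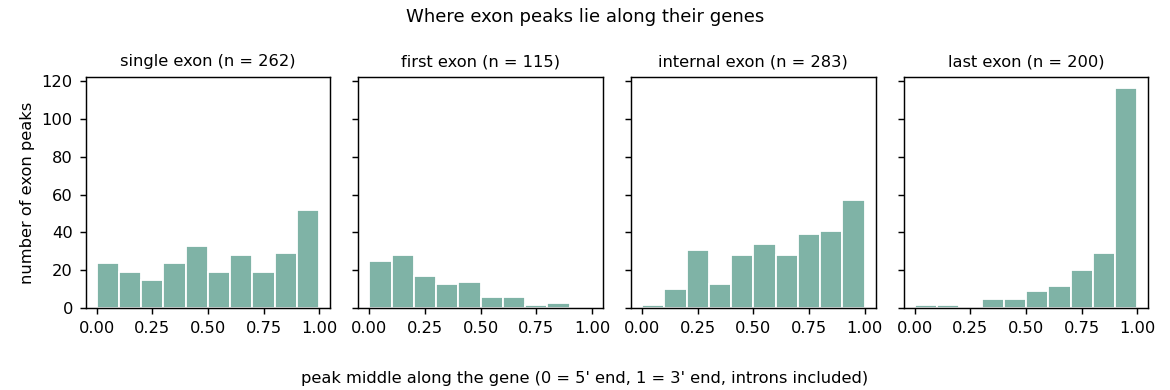
Histograms of where the middle of each exon peak lies along its gene (x axis, 0 at the 5' end and 1 at the 3' end of the gene model, introns included), with the number of peaks on the y axis and a panel for each exon place. Last-exon peaks gather at the 3' end, 116 of 200 in the last 10%, while single-exon peaks are spread along the gene.

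Most exon peaks that differed between genotypes were lower in mettl16. By the authors' deposited table, 445 of the 860 exon peaks were called (51.7%), against a background of 69.2% of all peaks. Of these, 390 were lower in mettl16, where 51.6% of all peaks were called lower, and 55 were higher, where 17.6% of all peaks were called higher. As shares of exon peaks these are 45.4% and 6.40%. The share of called peaks that were lower was 87.6% for exon peaks, 85.4% for 5' UTR peaks and 71.8% for 3' UTR peaks in the authors' deposited table. Exon peaks thus had a share of lower calls below the background and a share of higher calls below it by more, and the difference between classes was not tested, since the table has no values per sample.

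The median log2 fold change of exon peaks was -0.36 in the authors' deposited table, against -0.28 for 5' UTR peaks, -0.20 for 3' UTR peaks and -0.23 for all peaks. Called lower exon peaks had a median of -0.42 and called higher ones 0.61, against -0.28 and 0.29 for UTR peaks in the authors' deposited table. Values ran from -5.92 to 4.62, and 643 exon peaks (74.8%) were below 0. With a log2 fold change of at least 1 as well, 28 exon peaks were called lower (background 0.979% of all peaks) and 14 called higher (background 0.544%), so that 28 of the 63 peaks of this size that were lower and 14 of the 35 that were higher lay in exons. Of these 42 exon peaks, 25 had a host gene under 1 FPKM and 3 had one at 5 FPKM or more, so the large folds came mostly from weakly expressed hosts. No exon peak had a fold within 0.1 of 0 in the authors' deposited table, where 2.64% of UTR peaks did.

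Lower calls outnumbered higher ones in each exon place. By the authors' deposited table, 61 first-exon peaks were lower and 6 higher, with a median log2 fold change of -0.40. Internal-exon peaks held 160 lower and 18 higher calls with a median of -0.325. Last-exon peaks held 72 lower and 10 higher calls with a median of -0.34, and single-exon peaks 97 lower and 21 higher calls with a median of -0.42, all in the authors' deposited table. Called shares differed more than directions did: 62.9% of internal-exon peaks were called but 41.0% of last-exon peaks, whose hosts had a median of 7.32 and 3.00 FPKM. Peaks that reached the 3' end of the gene held 112 lower and 22 higher calls in the authors' deposited table, and peaks that ended before it 278 lower and 33 higher.

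**Figure D2:**
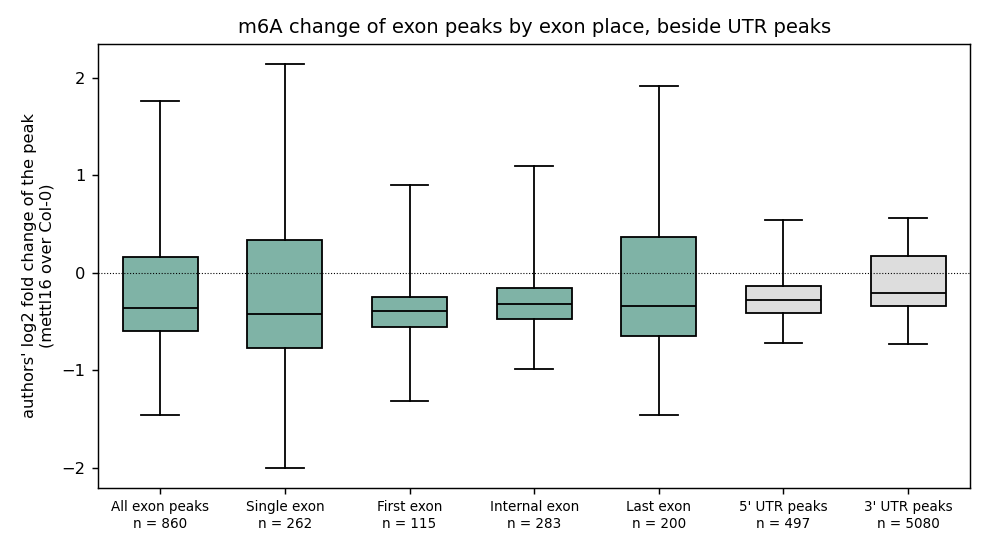
Box plots of the authors' log2 fold change of m6A peaks, mettl16 over Col-0 (y axis), for exon peaks in all and by exon place, with 5' and 3' UTR peaks at the right. Boxes span the quartiles with a line at the median, and whiskers run between the lowest and highest 5% of peaks; every median lies below 0, at -0.36 for all exon peaks and -0.20 for 3' UTR peaks, and single-exon and last-exon peaks are spread most widely.

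The level of the host transcript went with both the share of called peaks and their direction. Among exon peaks whose hosts averaged under 0.5 FPKM, 16 were lower and 13 higher of 165, and their median log2 fold change was 0.61 in the authors' deposited table. Between 5 and 20 FPKM the calls were 162 lower and 17 higher of 251. At 20 FPKM or more they were 111 lower and 3 higher of 122, so that 93.4% were called and 97.4% of calls were lower. UTR peaks were called about as often at this level (90.5%) but 77.8% of their calls were lower. Exon peaks under 0.5 FPKM were called in 17.6% of cases and UTR peaks in 37.9%. The difference between the classes at a given level was not tested.

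**Figure D3:**
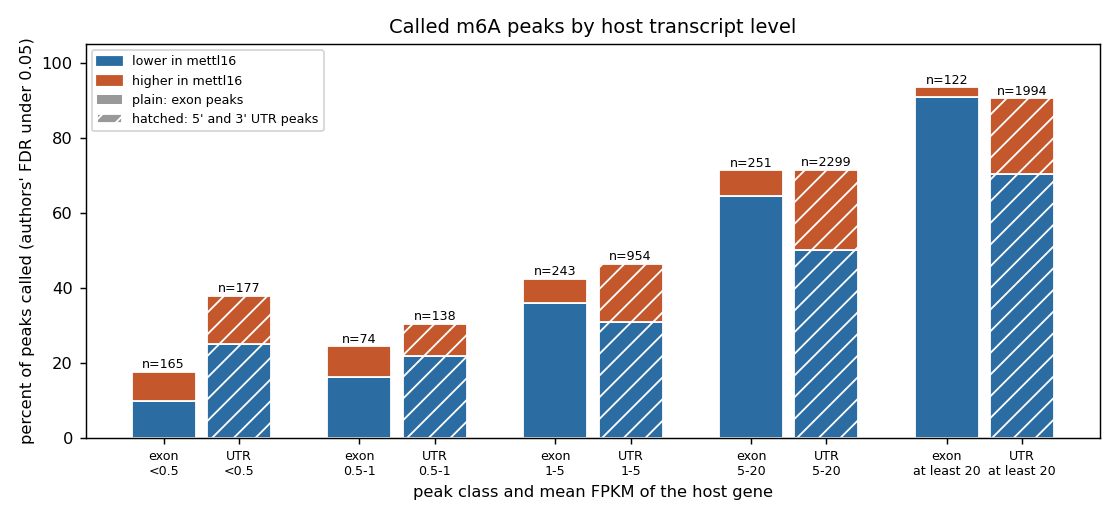
Percent of m6A peaks called different in the authors' deposited table (y axis, from 0) by peak class and mean FPKM of the host gene over the 6 RNA-seq libraries (x axis), with exon peaks plain and UTR peaks hatched, and the number of peaks above each bar. The lower part of a bar stands for peaks lower in mettl16 and the upper part for peaks higher; of 122 exon peaks with hosts at 20 FPKM or more 111 were lower and 3 higher.

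Restricting the comparison to protein-coding hosts at 5 FPKM or more left 347 exon peaks, 259 of them lower and 14 higher in the authors' deposited table, with a median log2 fold change of -0.34. Under the same limits 5' UTR peaks held 293 lower and 42 higher calls with a median of -0.27, and 3' UTR peaks 2253 lower and 848 higher with a median of -0.20. The 4 exon places were close to each other under these limits, with 48 lower and 1 higher for single exons, 45 and 3 for first exons, 124 and 6 for internal exons and 42 and 4 for last exons.

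Protein-coding genes hosted 685 exon peaks in 649 genes, and 345 of these peaks were lower and 31 higher in the authors' deposited table. Transposable element genes, which encode the proteins of mobile DNA and are mostly silent in shoots, hosted 90 exon peaks in 70 genes but 5 UTR peaks. Their exon peaks were called lower 18 times and higher 18 times, with a median log2 fold change of 0.37 in the authors' deposited table. Their hosts had a median of 0.301 FPKM, and 50 of the 90 peaks had a host under 0.5 FPKM, where the median log2 fold change was 0.71 with 4 lower and 10 higher calls. Protein-coding hosts under 0.5 FPKM also had a median above 0, at 0.70 over 92 peaks in the authors' deposited table. At 5 FPKM or more, 13 peaks of transposable element genes held 6 lower and 4 higher calls. Pseudogenes hosted 35 exon peaks, of which 10 were lower (28.6%) and 0 higher. Genes of non-coding RNA hosted 50, of which 17 were lower (34%) and 6 higher (12%). Over all exon peaks 45.4% were called lower and 6.40% higher. No test of the difference between kinds of host was made.

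**Figure D4:**
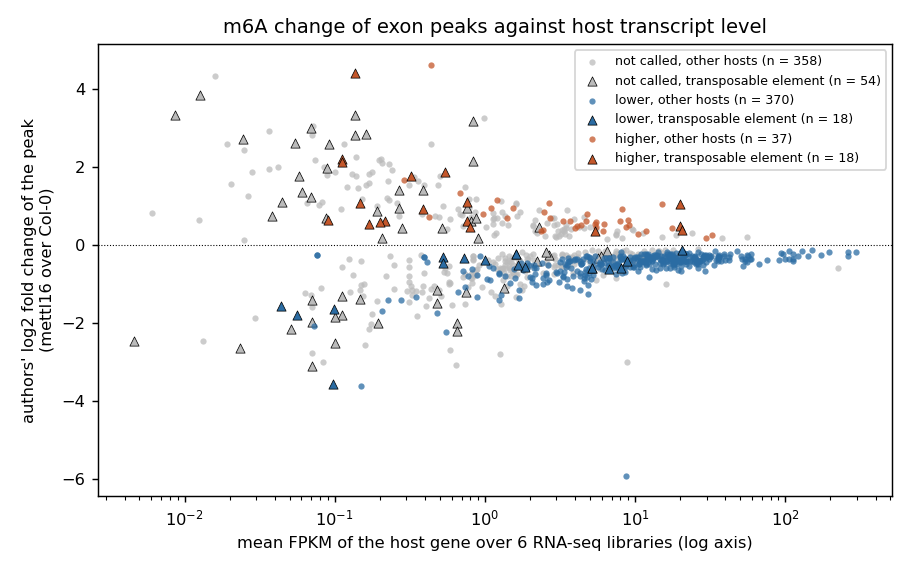
Each exon peak as a point, with the mean FPKM of its host gene over the 6 RNA-seq libraries on a log x axis and the authors' log2 fold change, mettl16 over Col-0, on the y axis. Colours mark peaks called lower, called higher or not called, and triangles mark transposable element genes; folds narrow to a band below 0 as the host level rises, and most peaks above 0 have hosts under 5 FPKM.

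The lower exon peaks with the smallest FDR lay in the front part of highly expressed genes and were longer than the median exon peak. The strongest lay in exon 2 of 12 of AT5G55660, a DEK domain gene of a family of chromatin-bound proteins, at chromosome 5, 22539452 to 22540316 (build TAIR10), with a log2 fold change of -0.535 at an FDR of 1e-101 in the authors' deposited table. Its transcript was at 59.3, 59.6 and 58.9 FPKM in mettl16 libraries, against 44.4, 44.6 and 45.2 FPKM in Col-0 libraries. The groups did not overlap, and the transcript rose by 0.40 in log2(FPKM + 1) (SE 0.0271, limma adjusted p = 9.52e-07). Its peak fold was thus below 0 while its transcript was higher. How input entered the fold is not given, and the part of the transcript difference in the fold was not tested. The same limit applies to the genes below. A second DEK domain gene, AT4G26630, had a peak of 924 nt in its exon 2 of 12 (chromosome 4, 13433849 to 13434772) with a log2 fold change of -0.36 at an FDR of 2.00e-97 in the authors' deposited table. The transcript was measured at 111.2, 114.7 and 112.8 FPKM in mettl16 libraries, against 113.6, 111.8 and 108.6 FPKM in Col-0 libraries, and the ranges overlapped (limma adjusted p = 0.541). The exon 1 peak of AT5G63550, the other DEK domain gene with an exon peak, was also lower, at -0.38 (FDR 1.74e-05) in the authors' deposited table.

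AT2G22795, which the file does not describe, had a lower peak in exon 2 of 2 at chromosome 2, 9698572 to 9699286, with a log2 fold change of -0.49 at an FDR of 1.26e-99 in the authors' deposited table. Its transcript was at 67.5, 68.3 and 67.2 FPKM in mettl16 libraries, against 67.5, 68.4 and 65.8 FPKM in Col-0 libraries, so the levels overlapped (limma adjusted p = 0.783). BAG7, a co-chaperone of the endoplasmic reticulum, had a lower peak in exon 1 of 3 (chromosome 5, 25053330 to 25053720) with a log2 fold change of -0.42 at an FDR of 1.58e-73 in the authors' deposited table. Its transcript level was 114.6, 112.9 and 112.3 FPKM in mettl16 libraries, against 112.6, 113.5 and 113.7 FPKM in Col-0 libraries (limma adjusted p = 0.989). The lower exon peaks of AT4G26630, AT2G22795 and BAG7 therefore stood beside transcript levels whose ranges in the 2 genotypes overlapped. The sign of these small transcript differences changed under some scalings, and after quantile normalization AT2G22795 (limma adjusted p = 0.0173) and BAG7 (limma adjusted p = 0.0280) were called lower.

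The largest decrease was at SAP130a (AT3G55200), which encodes a spliceosome subunit of the SF3b complex. Its peak in exon 1 of 3, at chromosome 3, 20463442 to 20463719, had a log2 fold change of -5.92 at an FDR of 4.07e-07 in the authors' deposited table. The transcript was at 10.5, 10.6 and 9.98 FPKM in mettl16 libraries, against 4.67, 8.23 and 7.99 FPKM in Col-0 libraries. All mettl16 libraries were above all Col-0 libraries, yet the difference did not pass the test (0.55 in log2(FPKM + 1), SE 0.201, limma adjusted p = 0.0603). Without Col-0 replicate 1, the low library, the transcript was called higher (limma adjusted p = 0.000717). The neighbouring SAP130b (AT3G55220) is a near-identical copy at 10.6, 10.5 and 10.1 FPKM in mettl16 libraries, against 8.74, 8.02 and 8.20 FPKM in Col-0 libraries, so the split of reads between the copies is uncertain for both peak and transcript.

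The next largest decrease was a peak of 197 nt at chromosome 4, 9205943 to 9206139, in exon 3 of 4 of AT4G16270, which the table assigns to the pseudogene AT4G16267. Its log2 fold change was -3.68 (FDR 2.00e-19) in the authors' deposited table. The transcript of AT4G16270 was at 6.74, 7.63 and 6.54 FPKM in mettl16 libraries, against 0.0862, 0.107 and 0.111 FPKM in Col-0 libraries. The mettl16 libraries were far above the Col-0 libraries, and the transcript rose by 2.85 in log2(FPKM + 1) (SE 0.0772, limma adjusted p = 2.05e-09). The Col-0 levels were near 0, so the Col-0 side of this fold rests on little transcript. A fold below 0 here need not mean less methylated RNA in mettl16. CYP98A9, a cytochrome P450 of the phenolamides of pollen coats, had a single-exon peak with a log2 fold change of -1.76 at an FDR of 0.00148 in the authors' deposited table. Its transcript was at 0.784, 0.846 and 0.833 FPKM in mettl16 libraries, against 0.190, 0.0749 and 0.138 FPKM in Col-0 libraries, with no overlap, and its mean over 6 libraries fell short of the filter for testing. The CYP98A9 level moved with the anther and pollen markers given above, and their part in the peak's fold was not tested.

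The remaining large decreases were on weakly expressed transcripts, under 1 FPKM in every library of both genotypes. CHX21, a cation/H+ exchanger, had a log2 fold change of -3.62 at an FDR of 0.0132 for 1 of its 2 last-exon peaks and of -1.04 without a call (FDR 0.238) for the other in the authors' deposited table, with 0.193, 0.241 and 0.251 FPKM in mettl16 libraries, against 0.0229, 0.0973 and 0.0969 FPKM in Col-0 libraries. The ankyrin repeat gene AT1G07710 was at -2.24 (FDR 0.00832) and HSD5, a hydroxysteroid dehydrogenase, at -2.09 (FDR 0.0199) in the authors' deposited table. AT1G07710 was at 0.590, 0.999 and 0.577 FPKM in mettl16 libraries, against 0.324, 0.316 and 0.522 FPKM in Col-0 libraries, and rose by 0.31 (limma adjusted p = 0.0410), a call that was lost without Col-0 replicate 1 (0.102) or 2 (0.111). HSD5 lay at or under 0.134 FPKM in each library. The transposable element genes AT4G01980.1 and AT5G18633.1 were at -3.58 (FDR 0.0380) and, with an FDR of 0.0263, -1.80 in the authors' deposited table, and the highest value of either in any library was 0.206 FPKM.

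Of the 8 genes with the largest increases, 5 were transposable element genes. The largest increase was at AT5G36740, described as an acyltransferase with a PHD-type zinc finger, whose peak in exon 8 of 8 (chromosome 5, 14465397 to 14465697) had a log2 fold change of 4.62 at an FDR of 0.00240 in the authors' deposited table. The transcript was measured at 0.534, 0.592 and 0.575 FPKM in mettl16 libraries, against 0.263, 0.334 and 0.329 FPKM in Col-0 libraries, which do not overlap. AT4G02960.1, a transposable element gene, had 3 exon peaks with log2 folds of 4.4 (FDR 0.0199), 3.32 (FDR 0.395) and 2.81 at an FDR of 0.459 in the authors' deposited table, of which the first was called. Its transcript level was 0.201, 0.205 and 0.349 FPKM in mettl16 libraries, against 0.0296, 0.0208 and 0.0130 FPKM in Col-0 libraries. Both the called peak and the transcript of this element were higher in mettl16, at very low levels.

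In other elements a higher peak stood beside a lower transcript level. The peak of AT2G29165.1 had a log2 fold change of 1.87 at an FDR of 0.000813 in the authors' deposited table, while the transcript was at 0.279, 0.297 and 0.183 FPKM in mettl16 libraries, against 0.845, 0.878 and 0.752 FPKM in Col-0 libraries, and fell by 0.54 (SE 0.0849, limma adjusted p = 0.000331). AT5G34825.1 was at 2.13 (FDR 0.000339) in the authors' deposited table, with 0.0163, 0.0264 and 0.0187 FPKM in mettl16 libraries, against 0.251, 0.277 and 0.0798 FPKM in Col-0 libraries. AT2G15810.1 was at 1.77 (FDR 0.0269) in the authors' deposited table, with 0.142, 0.212 and 0.180 FPKM in mettl16 libraries, against 0.460, 0.425 and 0.501 FPKM in Col-0 libraries. AT2G12440.1 had a peak at 2.20 (FDR 0.00759) and 2 without a call at -1.32 and -1.79 in the authors' deposited table. Its levels overlapped, at 0.103, 0.110 and 0.0958 FPKM in mettl16 libraries, against 0.0695, 0.125 and 0.164 FPKM in Col-0 libraries. The proton pump gene AHA10, known from seed coats, had a higher peak in exon 20 of 21 at 1.32 (FDR 0.0407) and the extensin-like gene AT5G19810 one at 1.67 (FDR 0.0195) in the authors' deposited table. AHA10 was at 0.622, 0.576 and 0.722 FPKM in mettl16 libraries, against 0.740, 0.734 and 0.699 FPKM in Col-0 libraries, which overlap (limma adjusted p = 0.447), and it was called lower after quantile normalization (-0.23, limma adjusted p = 0.0310).

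The higher exon peaks with the smallest FDR were again mainly in transposable element genes, but in expressed ones. AT1G35115.1 had 2 called peaks, at 1.04 (FDR 1e-106; chromosome 1, 12844586 to 12845455) and at 0.47 (FDR 2.40e-08; 12843836 to 12844196) in the authors' deposited table, and the first of these FDR values was the smallest among exon peaks. Its transcript was at 22.1, 23.4 and 23.3 FPKM in mettl16 libraries, against 16.2, 17.4 and 16.6 FPKM in Col-0 libraries, and rose by 0.43 (SE 0.0411, limma adjusted p = 1.03e-05). AT1G20390.1 had a peak of 5381 nt at 0.36 (FDR 2.51e-15) in the authors' deposited table, with 8.58, 8.49 and 8.51 FPKM in mettl16 libraries, against 2.15, 2.37 and 2.19 FPKM in Col-0 libraries. Its transcript rose by 1.56 (limma adjusted p = 1.46e-08). In both elements the groups of libraries did not overlap and peak and transcript were higher in mettl16. AT2G11240.1 held a higher peak at 0.38 (FDR 7.94e-11) and, further from its 3' end, a lower one at -0.14 (FDR 0.00490) in the authors' deposited table, with 19.5, 19.5 and 19.0 FPKM in mettl16 libraries, against 22.1, 21.8 and 21.0 FPKM in Col-0 libraries (limma adjusted p = 0.00426). Copies of mobile elements can share reads, so the source of these signals is uncertain.

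**Figure D5:**
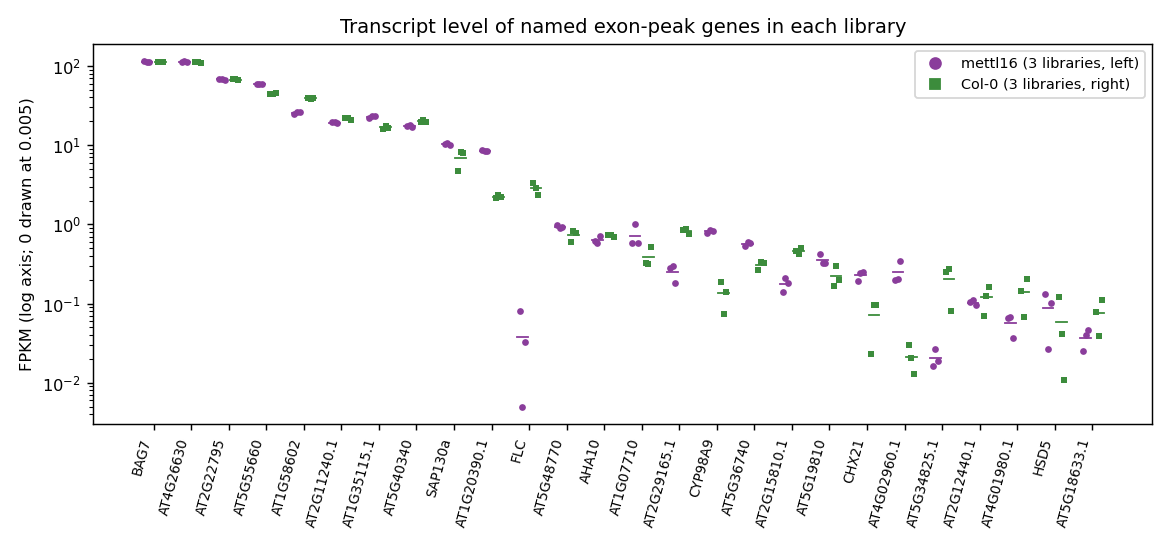
FPKM of the genes chosen by the naming rule that are in the expression table, for each mettl16 library (circles, left of each pair) and each Col-0 library (squares, right), with a line at the mean, on a log y axis where a value of 0 is drawn at 0.005. BAG7, AT4G26630 and AT2G22795 have overlapping genotypes near or above 65 FPKM, while FLC and AT5G34825.1 lie lower in mettl16 and AT1G20390.1 and CYP98A9 higher.

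Of the lists of flowering regulators, m6A machinery and the S-adenosylmethionine cycle, 1 gene had an exon peak, the floral repressor FLC. Its peak, of 60 nt in blocks across exon 4 of 7 (chromosome 5, 3175077 to 3175214), had a log2 fold change of -0.415 at an FDR of 0.681 in the authors' deposited table and was not called. The FLC transcript was at 0.0807, 0 and 0.0327 FPKM in mettl16 libraries, against 3.29, 2.89 and 2.35 FPKM in Col-0 libraries, where 0 is a listed value. It fell by 1.88 in log2(FPKM + 1) (SE 0.102, limma adjusted p = 1.90e-07), with every mettl16 library below every Col-0 library. The other members of these lists had no exon peak: 0 of 18 floral activators and identity genes, 0 of 8 autonomous pathway genes, 0 of 22 genes of the m6A machinery and 0 of 6 genes of the S-adenosylmethionine cycle, although 7, 2, 7 and 0 of them had a peak of some class. Exon peaks were uncommon over all genes, at 790 of the 25566 genes with FPKM values, so these zeros are no result about the lists. Of the 17 floral repressors 1 rose and 12 fell of 17 tested, and of the floral activators 15 rose and 1 fell of 16 tested; of the m6A machinery 11 rose and 3 fell of 21 tested, beside a background of 41.1% of tested genes called higher and 23.4% called lower.

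Of 53 genes with at least 2 exon peaks, some of which overlap each other, 38 had folds below 0 in each of them, 9 had folds above 0 in each and 6 had both signs in the authors' deposited table. AT5G40340, a Tudor/PWWP/MBT protein of the kind that binds methylated histones, had 4 separate peaks in its long exon 2 of 2, at -0.48 (FDR 3.80e-05), -0.35 (FDR 3.98e-12), -0.34 (FDR 0.00407) and, with an FDR of 4.17e-05, -0.43 in the authors' deposited table. The transcript was measured at 17.7, 17.9 and 17.0 FPKM in mettl16 libraries, against 19.9, 20.7 and 19.6 FPKM in Col-0 libraries, and fell by 0.19 (SE 0.0395, limma adjusted p = 0.00222). All 4 of its peaks were thus lower, as was the transcript. The 4 exon peaks assigned to AT5G48770, a disease resistance gene, overlap each other in pairs in exons of AT5G48775, where gene models lie on both strands, and ran from -0.40 to -0.28 in the authors' deposited table with no call. Of 25 genes with at least 2 called exon peaks, 2 held calls in both directions, AT2G11240.1 and DAR4. DAR4, an immune receptor with a LIM domain, was higher in exon 4 of 13 at 0.62 (FDR 0.000263) and lower in exon 5 of 13 at -0.31 (FDR 0.00295) in the authors' deposited table.

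The KEGG pathways of the authors' expression table gave 3 groups with at least 10 host genes. The Spliceosome group had 17 exon peaks in 14 genes, of which 13 were lower and 0 higher, with a median log2 fold change of -0.355 in the authors' deposited table. Its hosts had a median of 21.5 FPKM, and of all exon peaks with hosts at 20 FPKM or more 111 of 122 were lower, against which its share of lower peaks was 76.5%, and nothing particular to the group is read from it. DOT2, of the SART-1 family of splicing proteins, was lower in exon 2 of 13 by -0.545 (FDR 1.00e-21), and AT1G60200, a PWI domain splicing factor, had 2 lower peaks in exon 4 of 7 at -0.355 (FDR 2.00e-24) and, with an FDR of 0.000295, -0.43 in the authors' deposited table. CDC5, a Myb-like protein that acts with the spliceosome, was lower at -0.32 (FDR 4.79e-05) and UBA2A, an RNA-binding protein, at -0.315 (FDR 3.39e-09) in the authors' deposited table. SR30, an SR splicing factor, was at 0.16 (FDR 0.115) in the authors' deposited table, without a call. Some members of the group are not known for splicing: LRX2, a leucine-rich repeat extensin of cell walls, was lower at -1.71 (FDR 0.00234), and AT4G38550, annotated as a phospholipase-like protein, had 2 lower peaks of 3 in the authors' deposited table.

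Transcripts of the Spliceosome hosts were called higher in 5 and lower in 1 of 13 tested genes with limma, where the higher share (38.5%) is near the background of 41.1%. DOT2 was at 20.8, 20.6 and 20.8 FPKM in mettl16 libraries, against 20.3, 20.2 and 19.6 FPKM in Col-0 libraries (limma adjusted p = 0.234). UBA2A averaged 42.2 ± 1.82 FPKM in mettl16 and 30.7 ± 1.05 FPKM in Col-0 libraries (SD, n = 3 each), and rose by 0.45 (SE 0.0408, limma adjusted p = 7.70e-06). AT4G38550 was the host that fell, at 18.3 ± 1.06 FPKM in mettl16 and 41.7 ± 2.01 FPKM in Col-0 libraries (SD, n = 3 each), by 1.145 (limma adjusted p = 4.43e-08).

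The Plant-pathogen interaction group, with immune receptors, WRKY factors and calcium sensors, had more higher than lower calls. Of its 14 exon peaks in 13 genes 4 were lower (28.6%) and 6 higher (42.9%), against 45.4% and 6.40% of all exon peaks. This difference was not tested. The median log2 fold change of the group was -0.30 in the authors' deposited table. The higher ones were in ADR1, a helper immune receptor (0.52, FDR 0.00398), AT1G58602 (0.24, FDR 1.00e-12), AT1G61190 (0.16, FDR 0.0191), AT4G36140 (0.60, FDR 0.00347), WRKY50 (0.52, FDR 0.000794) and the exon 4 peak of DAR4 in the authors' deposited table. The lower ones were in WRKY33, a regulator of camalexin synthesis (-0.29, FDR 0.00501), the calcium-binding gene AT3G47480 (-0.64, FDR 0.0151), the ion channel gene CNGC13 (-0.69, FDR 0.00417) and the exon 5 peak of DAR4 in the authors' deposited table. Of the 13 hosts, all tested, 9 transcripts fell and 1 rose with limma, beside backgrounds of 23.4% lower and 41.1% higher. AT1G58602 was at 24.8, 26.2 and 26.5 FPKM in mettl16 libraries, against 39.1, 38.8 and 39.6 FPKM in Col-0 libraries, and fell by 0.58 (SE 0.0349, limma adjusted p = 3.86e-07). WRKY33 was at 14.2, 15.4 and 14.4 FPKM in mettl16 libraries, against 32.5, 33.7 and 33.2 FPKM in Col-0 libraries, and fell by 1.12 (SE 0.0399, limma adjusted p = 1.26e-08). ADR1 averaged 6.26 ± 0.156 FPKM in mettl16 and 6.20 ± 0.0541 FPKM in Col-0 libraries (SD, n = 3 each; limma adjusted p = 0.844).

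Genes that the file describes as disease resistance proteins, a group chosen after the values had been seen, gave 21 exon peaks in 17 genes with 2 lower and 7 higher calls in the authors' deposited table. Those calls are 9.52% and 33.3% of the group's exon peaks, against 45.4% and 6.40% of all exon peaks. This group overlaps the Plant-pathogen interaction group, since AT1G58602 is counted in both, so they are not separate observations. UTR peaks of these genes held 5 lower and 11 higher calls of 31, so higher calls outnumbered lower ones in both classes. The largest was at AT1G63880, a receptor of the TIR-NBS-LRR class, whose peak in exon 4 of 4 (chromosome 1, 23713319 to 23713438) had a log2 fold change of 1.04 at an FDR of 4.57e-09 in the authors' deposited table. Its transcript level was 11.1, 11.3 and 11.3 FPKM in mettl16 libraries, against 19.3, 18.6 and 19.2 FPKM in Col-0 libraries, and fell by 0.71 (SE 0.0382, limma adjusted p = 1.73e-07). Receptor genes of this class lie in clusters of similar copies, so the split of reads between them is uncertain.

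The Pentose and glucuronate interconversions group had 13 exon peaks in 11 genes, 9 lower and 1 higher, with a median log2 fold change of -0.32 in the authors' deposited table. Of its called peaks 90% were lower, near the 87.6% of all called exon peaks. Nothing particular to the group is read from that share. Its pectin genes included AT1G62760 (-1.0, FDR 1.10e-08) and AT3G47670 (-0.41, FDR 7.94e-12), both described as pectin methylesterase inhibitors, which were lower, and AT3G27980 (0.775, FDR 0.00126), which was higher in the authors' deposited table. The group also counts trihelix transcription factors that are not known for pectin: GTL1, a repressor of trichome growth, was lower at -0.365 (FDR 1.58e-28), and GT2 had 2 overlapping lower peaks at -0.248 and -0.251 in the authors' deposited table, both in the exon of AT1G76892, a gene model of other RNA that overlaps GT2. Of 8 tested hosts 5 transcripts fell and 1 rose with limma, beside transcript backgrounds of 23.4% lower and 41.1% higher. GTL1 averaged 48.4 ± 0.171 FPKM in mettl16 and 69.4 ± 2.91 FPKM in Col-0 libraries (SD, n = 3 each, limma adjusted p = 9.31e-07).

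Genes with an exon peak and a 3' UTR peak allowed the classes to be set side by side within a transcript. In the 84 such genes the exon peak had a median log2 fold change of -0.366 and the 3' UTR peak -0.2355, averaged per gene, in the authors' deposited table. The exon value was below the 3' UTR value in 63 genes and above it in 21, and the median of the difference was -0.13. Genes with an exon peak and a 5' UTR peak numbered 12, and there the exon value was below in 4 and above in 8, with medians of -0.46 and -0.58 in the authors' deposited table. Examples were chosen after their values had been seen. HUA2, which raises FLC expression, was at -0.62 in its exon 8 of 11 and at 0.31 in its 3' UTR, and GTA2, a transcription elongation factor, at -0.42 and 0.33 in the authors' deposited table. AT1G63880 went the other way, at 1.04 in the exon and -0.084 in the 3' UTR in the authors' deposited table. The difference between the classes within genes was not tested.

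Host genes of exon peaks changed in expression about as often as other genes. Of the 795 hosts 790 were in the expression table and 643 were tested, the others being under a mean of 0.5 FPKM. With limma 279 rose in mettl16 (43.4% of the tested hosts, background 41.1%) and 123 fell (19.1%, background 23.4%), and 64.5% of all tested genes were called in either direction. Of the called hosts 69.4% were higher, or 55.8% after quantile normalization (218 higher and 173 lower) and 60.5% after median centring. The median log2 difference was 0.12 for hosts and 0.085 for all tested genes. The libraries of mettl16 and Col-0 did not overlap for 451 hosts, or 70.1%, against a background of 69.8%. These shares are near the background and are no result about exon-peak hosts.

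By exon place, transcripts of internal-exon hosts rose in 112 and fell in 36 of 241 tested genes, and those of last-exon hosts rose in 53 and fell in 35 of 146. After quantile normalization these counts were 89 and 51 for internal exons, and 39 and 53 for last exons. Over all tested genes the balance turned in the same way, from 8016 higher and 4568 lower to 6088 higher and 6252 lower. The turn is therefore not particular to last-exon hosts. Transposable element hosts rose in 15 and fell in 7 of 31 tested genes, or 9 and 9 after quantile normalization. The m6A comparison and the expression comparison share the input libraries as far as the sources tell, so no relation between peak and transcript changes over genes is given, and each gene's values are set side by side instead.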

How the data were processed

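m6A immunoprecipitates and RNA-seq (input) libraries were made from the aerial part of mettl16 and Col-0 plants, with 3 of each per genotype. The submitters' processing notes list HISAT2, StringTie, HOMER, edgeR, fastp and cutadapt with the build TAIR10, and no versions or roles. Expression was used as the FPKM values deposited by the authors, whose columns carry the genotype and replicate number of each sample. The authors' deposited peak table holds, for each peak, the log2 fold change with its p-value and, stored as a score below 0 per the file headers, the log10 of the FDR. The sources used here do not give the peak caller, the use of strand or the way replicates and input entered the comparison. The fold changes and FDR are the authors' own, so no test of m6A was added, and the depth behind a peak is unknown. FPKM does not store depth either.

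Exon rows were read from the annotation, and exon place from its exon number and total. Peak counts are counts of rows, in which 1 exon interval is repeated. Gene symbols and gene kinds came from descriptions in the authors' file and from a RefSeq table (TAIR10.1) in which 725 of 795 host genes (91.2%) were found. Coordinates are those of the authors' files. No genome was used, so the sequences of the peaks are not analysed here.

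Genes averaging 0.5 FPKM or more were tested on log2(FPKM + 1), that is with a pseudocount of 1, by limma 3.58.1 (R 4.3.3), whose prior variance was trended and robust. The test is two-sided, with Benjamini-Hochberg adjusted p under 0.05 over 19505 genes, and it was tested on simulated data. Changes on this scale understate those of genes with low values. Named genes were, among called exon peaks, the 8 genes with the largest lower and the 8 with the largest higher fold, the 4 lower and 4 higher genes with the smallest FDR, members of the flowering, m6A and S-adenosylmethionine lists, and the genes with the most exon peaks, 27 in all. Further genes illustrate pathways and families. The members and lists were chosen with earlier results of these data known. Replicate numbers mark no shared batch in the labels, and the fit has no block. The labels call the samples biological replicates without naming plants, so p-values measure the spread between these samples. Alternatives changed the FDR limit, the size limit, the counting of rows, the centring of folds, the pseudocount, the filter, the scaling, the prior and the libraries included. Tables and figures used matplotlib 3.10.9, pandas 2.3.3, SciPy 1.17.1 and NumPy 2.4.6 under Python 3.11.15.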

Additional observations from a re-analysis of the deposited data

How the results depend on the processing

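The balance toward lower exon peaks held under each setting run. At an FDR under 0.01 the authors' deposited table gave 31 higher exon peaks and 90.9% of calls lower. At an FDR under 0.05 with a log2 fold change of at least 0.5 in either direction it gave 141 lower ones and 78.3% of calls lower. Folds centred on the median of all peaks gave 83.4% lower and a median of -0.13, and called peaks alone had a median of -0.40. Protein-coding hosts only and peaks within a single gene model were choices made after seeing the data; with the first of these 31 were higher and 91.8% of calls lower. The counts of host genes stayed within 1.5 times under each setting, at 255 to 272 higher and 110 to 116 lower when 1 library was left out. Same-numbered replicates of the genotypes did not deviate together (r = -0.082, 0.0087 and 0.0017), and with the replicate block 272 hosts were higher and 118 lower.

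Transcript differences near 0 changed sign: AT2G22795 was at -0.061 after median centring, -0.089 after quantile normalization (limma adjusted p = 0.0173) and between -0.0056 and 0.021 with 1 library left out, AT4G26630 at -0.050 and -0.042 after the same scalings, and BAG7 at 0.030 as TPM, -0.071 after each of those scalings (limma adjusted p = 0.0273 and 0.0280, so called lower) and between -0.0089 and 0.0055 with 1 library left out. AHA10 was called lower after quantile normalization (-0.23, limma adjusted p = 0.0310). The cause was not tested. The call of AT1G07710 was lost after both scalings and with the replicate block (limma adjusted p = 0.0582), which changed no other call of a gene named by the rule, and SAP130a was called in 4 of its alternatives. The depth of the peaks is unknown, so the precision of folds on weakly expressed hosts is unknown too.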

Other observations

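Genes with pentatricopeptide or tetratricopeptide repeats, which mostly process RNA in chloroplasts and mitochondria, were chosen as a group after the values had been seen. They hosted 26 exon peaks in 26 genes, of which 11 were lower (42.3%) and 1 higher (3.85%). These shares were near those of all exon peaks, 45.4% and 6.40%. The median log2 fold change of the group was -0.61 in the authors' deposited table. Its hosts had a median of 2.03 FPKM, and all exon peaks with hosts between 1 and 5 FPKM had a median fold of -0.455. UTR peaks of the group held 51 lower and 18 higher calls of 107 in the authors' deposited table. RARE1, an editing factor of chloroplast RNA, was lower at -0.95 (FDR 0.0170), and AT3G49730 at -1.17 (FDR 1.35e-09) in the authors' deposited table. The transcript of RARE1 was at 2.57, 3.35 and 3.50 FPKM in mettl16 libraries, against 2.15, 2.20 and 1.77 FPKM in Col-0 libraries, and rose by 0.44 (SE 0.103, limma adjusted p = 0.00391). Of the 26 hosts 18 rose and 2 fell with limma, or 17 and 2 after quantile normalization, beside 41.1% of all tested genes called higher and 23.4% called lower.

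Other groups described in the file are given beside all exon peaks, of which 45.4% were called lower and 6.40% higher. Lower calls made up 87.6% of all called exon peaks, so no difference between groups is read from the counts. DnaJ chaperone genes had 9 exon peaks with 8 lower and 0 higher calls, against 24 lower and 1 higher of 30 UTR peaks of such genes in the authors' deposited table. Genes of bHLH factors had 9 exon peaks with 5 lower and 0 higher calls, against 18 lower and 1 higher of 25 UTR peaks in the authors' deposited table. Cytochrome P450 genes had 4 exon peaks with 1 lower and 1 higher call, against 12 lower and 3 higher of 28 UTR peaks in the authors' deposited table. Protein kinase genes had 37 exon peaks with 16 lower and 1 higher calls, against 122 lower and 67 higher of 279 UTR peaks of kinase genes in the authors' deposited table. SPL8, a regulator of early anther development, had a lower exon 1 peak at -0.86 (FDR 2.51e-11) in the authors' deposited table, with 7.32, 6.48 and 6.25 FPKM in mettl16 libraries, against 2.36, 2.50 and 2.65 FPKM in Col-0 libraries. ERD14, a dehydrin with a lower peak in exon 2 of 3, was listed at 108.8, 108.5 and 265.7 FPKM in mettl16 libraries, against 231.5, 224.7 and 96.1 FPKM in Col-0 libraries, where replicate 3 departs from replicates 1 and 2 in both genotypes and in opposite directions. Groups and genes here were picked after their values were seen, and nothing about them was tested beyond the values given.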
